A study of Homo sapiens with 6 samples.

Results

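The thioredoxin and peroxiredoxin system was followed through 10 named genes: the thioredoxins TXN and TXN2, the thioredoxin reductases TXNRD1 and TXNRD2, and the peroxiredoxins PRDX1 to PRDX6. Members were taken by gene symbol, from probe sets with a single symbol in the array annotation. Of the 10 genes, 9 were measured, among 18417 genes in all, and PRDX5 was not analysed here. Each of the 9 had 1 probe set, so no choice between probe sets was needed.

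Thioredoxins are small proteins that reduce disulphides in other proteins, and thioredoxin reductases, which contain selenocysteine, return them to the reduced state with electrons from NADPH. Peroxiredoxins break down hydrogen peroxide through a reactive cysteine, and most of them draw their electrons from thioredoxin. Cells keep parallel sets: TXN, TXNRD1, PRDX1, PRDX2 and PRDX6 work mainly in the cytosol, TXN2, TXNRD2 and PRDX3 in mitochondria, and PRDX4 in the endoplasmic reticulum. In cancer cells the system is known for buffering peroxide and for supplying electrons to ribonucleotide reductase, which makes the building blocks of DNA.

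The cells were MDA-MB-231, an established human breast cancer line that lacks the oestrogen receptor, grown in DMEM with 10% serum. The DMSO group (3 arrays) received the solvent, and the YW3-56 group (3 arrays) was exposed to the compound at 10 µM over 8 h. YW3-56 inhibits peptidylarginine deiminases, which turn arginine in proteins into citrulline, and the labels give no separate time for the solvent. The labels call the 3 replicates of each group biological without saying what separated them. All come from a single line, so the p-values set the group difference against variation between replicates of this line, not between lines. Values are RMA expression values on the log2 scale, in which a difference of 1 is a 2-fold change.

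Across genes, arrays correlated at 0.990 to 0.997 within groups and at 0.980 to 0.985 between groups. Of the markers of the line, VIM, CD44, CAV1, AXL and MSN had signals between the 99.5 and 99.7 percentiles of tested genes. The signals of ESR1, PGR, GATA3, CDH1 and EPCAM, which mark receptor-positive or epithelial breast cells, lay between the 8.88 and 39.1 percentiles. The signals of the 9 members lay between the 63.2 percentile (PRDX2) and the 98.6 percentile (PRDX1), so none was dim. An array signal depends on its probes, so these percentiles rank signals and do not measure how transcript amounts differ between genes.

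The thioredoxin reductases rose with YW3-56, and the mitochondrial peroxiredoxin PRDX3 fell. TXNRD1 was 1.58-fold higher, TXNRD2 was 1.33-fold higher and PRDX3 was 1.25-fold lower (limma, adjusted p = 0.0025, 0.013 and 0.011, n = 3 arrays per group). The thioredoxins TXN and TXN2 and the peroxiredoxins PRDX1, PRDX2, PRDX4 and PRDX6 did not pass the threshold of 0.05 on the adjusted p. Thus 3 of 9 measured members were called, 2 higher and 1 lower. Over all genes tested, limma called 21.4%, with 9.84% higher and 11.5% lower, and no enrichment is read from a count of 3 in 9. The median log2 fold change was -0.01 over the 9 members and -0.05 over all genes. In these bulk cultures, a change in RNA per cell and a change in the make-up of the culture cannot be told apart.

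**Figure D1:**
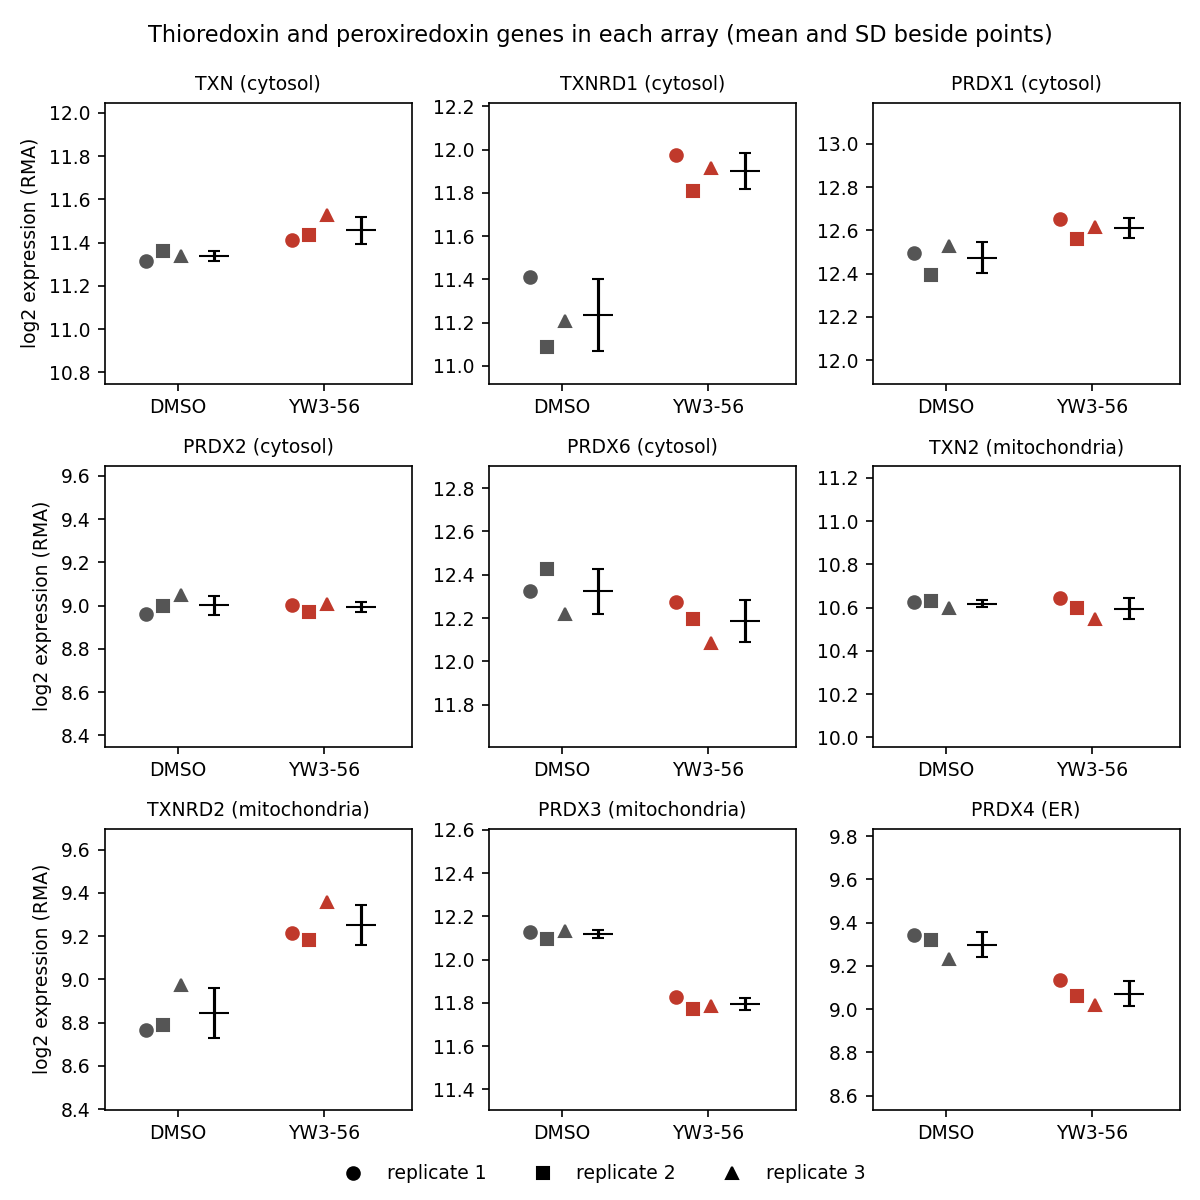
The log2 expression of each of the 9 measured members (vertical axes, each spanning the same number of log2 units) in the 3 DMSO arrays (grey) and 3 YW3-56 arrays (red); symbols give the replicate number, and the bar beside them is the mean with its SD. The groups stand apart for TXN, TXNRD1, TXNRD2, PRDX1, PRDX3 and PRDX4, and overlap for TXN2, PRDX2 and PRDX6.

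The bases upstream of the 3 called members are shown because they allow a search for letters that stress-responsive transcription factors are known to bind. They are the 250 bases before the annotated start, from RefSeq on GRCh38.p14, written 5′ to 3′ on the strand of the gene. Capitals mark matches to the core of the antioxidant response element, the site bound by NRF2, searched as TGACNNNGC and as TGAGNNNGC on both strands. TXNRD1 has 2 annotated starts, with windows at chr12:104215529-104215778 and chr12:104286782-104287031 on the plus strand, and both windows are given. TXNRD2 has 3, and the window with a match, at chr22:19941819-19942068 on the minus strand, is given. PRDX3 has 1, with its window at chr10:119178813-119179062 on the minus strand.
TXNRD1, upstream start: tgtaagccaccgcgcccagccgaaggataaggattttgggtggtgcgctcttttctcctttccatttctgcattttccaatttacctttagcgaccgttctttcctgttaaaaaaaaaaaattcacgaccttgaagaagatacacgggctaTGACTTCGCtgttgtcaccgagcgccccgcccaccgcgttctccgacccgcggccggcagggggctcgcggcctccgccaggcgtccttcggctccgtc
TXNRD1, downstream start: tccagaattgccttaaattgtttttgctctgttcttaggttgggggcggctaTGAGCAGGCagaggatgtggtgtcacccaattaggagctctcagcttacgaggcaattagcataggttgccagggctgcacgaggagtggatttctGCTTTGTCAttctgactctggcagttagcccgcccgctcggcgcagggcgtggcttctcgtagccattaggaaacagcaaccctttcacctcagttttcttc
TXNRD2: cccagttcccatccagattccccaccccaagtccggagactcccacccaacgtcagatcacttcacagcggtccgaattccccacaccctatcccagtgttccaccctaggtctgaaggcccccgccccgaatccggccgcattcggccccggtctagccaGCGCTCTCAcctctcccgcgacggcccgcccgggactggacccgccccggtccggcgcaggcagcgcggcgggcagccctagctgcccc
PRDX3: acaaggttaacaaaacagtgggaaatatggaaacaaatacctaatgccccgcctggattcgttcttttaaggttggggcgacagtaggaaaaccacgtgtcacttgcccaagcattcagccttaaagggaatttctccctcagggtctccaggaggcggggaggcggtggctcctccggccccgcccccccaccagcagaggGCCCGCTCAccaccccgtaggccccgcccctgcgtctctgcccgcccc

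The upstream TXNRD1 window held TGACTTCGC, beginning 99 bases before the start. The downstream window held GCTTTGTCA, a match on the opposite strand beginning 102 bases before the start, and TGAGCAGGC, beginning 198 bases before it. TXNRD2 had GCGCTCTCA (89 bases before the start) and PRDX3 had GCCCGCTCA (48 bases before it), both matches to TGAGNNNGC on the opposite strand. Promoter entries were found for 7 members, with 11 starts. The other members with an entry, TXN, PRDX2, PRDX4 and PRDX5, held neither core, and TXN2, PRDX1 and PRDX6 had no entry. Either core was present in 23.9% of all 35114 windows of the same length (TGACNNNGC in 10.9%, TGAGNNNGC in 14.8%), and in 4 of the 11 member windows. The same windows of the 7 members held no match to TGATGNAA, the core of the site bound by ATF4 with CEBP partners (3.14% of all windows), or to the heat shock element in its ungapped form of 3 alternating units (0.441%). A match is a description of letters, and no binding was measured here.

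TXNRD1, the cytosolic reductase that keeps TXN reduced, measured 11.41, 11.09 and 11.21 in DMSO replicates 1 to 3, and 11.97, 11.81 and 11.91 in YW3-56 replicates 1 to 3. Every treated array lay above every DMSO array. The mean went from 11.24 ± 0.16 (SD, n = 3) to 11.90 ± 0.08, a log2 fold change of 0.66 ± 0.10 SE with a 95% confidence interval of 0.44 to 0.89. TXNRD1 showed the largest change of the 9 members, and its absolute change was at the 95.1 percentile of all genes. It ranked 488 among 18417 genes by rise. Its call was kept under all 14 other settings run, with changes from 0.59 to 0.76 and adjusted p from 1.0e-04 to 0.032.

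TXNRD2, the mitochondrial reductase, which serves TXN2, measured 8.77, 8.79 and 8.98 in DMSO and 9.21, 9.18 and 9.36 in YW3-56. The groups did not overlap, and replicate 3 was the highest in both. The mean went from 8.84 ± 0.11 to 9.25 ± 0.09 (SD, n = 3), a log2 fold change of 0.41 ± 0.09 SE (interval 0.20 to 0.61). The call was lost without DMSO replicate 2 (adjusted p = 0.058), without YW3-56 replicate 3 (0.065) and when each gene was tested on its own variance (0.054), called the per-gene test from here on, while the change stayed between 0.36 and 0.47.

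The 2 reductases were set against each other within each array. The rise of TXNRD1 exceeded that of TXNRD2 by 0.26 ± 0.14 SE on the log2 scale, with a 95% interval of -0.14 to 0.65. The within-array differences of the groups overlapped, and an exact two-sided permutation test gave p = 0.3 (adjusted p = 0.3 over 5 pairs). Taken between arrays of the same replicate number, the excess of TXNRD1 was 0.11, 0.33 and 0.32 in pairs 1 to 3, positive in 3 of 3, with a paired interval of -0.05 to 0.56. With each array left out in turn, the mean excess ran from 0.17 without DMSO replicate 3 to 0.38 without DMSO replicate 1. Both intervals include 0 and also sizeable excesses, so they show neither a difference between the reductases nor that they moved alike.

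TXN, the cytosolic thioredoxin, measured 11.32, 11.36 and 11.34 in DMSO and 11.41, 11.43 and 11.53 in YW3-56. All treated arrays lay above all DMSO arrays, but the step was small, at 0.12 ± 0.07 SE (interval -0.04 to 0.28, limma adjusted p = 0.31). TXN2, the mitochondrial thioredoxin, measured 10.63, 10.63 and 10.60 in DMSO and 10.64, 10.60 and 10.55 in YW3-56. Its groups overlapped, and its difference was -0.02 ± 0.07 SE (interval -0.18 to 0.13, adjusted p = 0.87). The sign of the TXN2 difference turned positive after a second quantile normalization, after centring of each array and without YW3-56 replicate 3. The intervals leave room for a TXN rise of up to 0.28 and for a TXN2 difference of up to 0.18 in size, both below the measured change of TXNRD1.

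PRDX3, the mitochondrial peroxiredoxin that is recycled by TXN2, measured 12.13, 12.09 and 12.13 in DMSO and 11.83, 11.77 and 11.79 in YW3-56. The arrays of each group lay close together, with SDs of 0.02 and 0.03, and the groups stood well apart. The log2 fold change was -0.32 ± 0.07 SE (interval -0.48 to -0.17), which places its absolute size at the 80.4 percentile of all genes. The SE from limma exceeds what the arrays of this gene alone give, because eBayes shares variance across genes. The call was narrowly lost without YW3-56 replicate 2 (adjusted p = 0.0503) and without YW3-56 replicate 3 (0.053), with changes of -0.31 and -0.32, and kept under the other 12 settings.

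PRDX4, the peroxiredoxin of the endoplasmic reticulum, measured 9.35, 9.32 and 9.23 in DMSO and 9.14, 9.06 and 9.02 in YW3-56. Every treated value was below every DMSO value. The difference was -0.23 ± 0.07 SE (interval -0.40 to -0.06), with an unadjusted p of 0.015 and a limma adjusted p of 0.065. With replicate number as a block the adjusted p was 0.043, after a second quantile normalization 0.045, without dim genes 0.040 and with array weights 0.012. Its side of the threshold depended on the setting, while its sign was negative under all 14 other settings.

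The cytosolic peroxiredoxins did not pass the adjusted threshold in the reported fit. PRDX1, an abundant scavenger of peroxide that also acts as a chaperone, measured 12.50, 12.39 and 12.53 in DMSO and 12.65, 12.56 and 12.62 in YW3-56. The groups stood apart, and the difference was 0.14 ± 0.07 SE (interval -0.03 to 0.31, limma adjusted p = 0.26). PRDX2, known best from red blood cells, measured 8.959, 8.998 and 9.048 in DMSO and 9.003, 8.969 and 9.009 in YW3-56. The ranges lay on top of each other, with a difference of -0.01 ± 0.07 SE (interval -0.17 to 0.15, adjusted p = 0.96), whose sign turned positive under both scaling alternatives, without DMSO replicate 3 and without YW3-56 replicate 2. PRDX6, which uses glutathione in place of thioredoxin and also has a phospholipase activity, measured 12.33, 12.43 and 12.22 in DMSO and 12.28, 12.20 and 12.09 in YW3-56. Its groups overlapped, and the difference was -0.14 ± 0.09 SE (interval -0.34 to 0.06, adjusted p = 0.34). With array weights PRDX6 was called lower (-0.23, adjusted p = 0.046). PRDX1 to PRDX4 resemble each other in sequence, and signal from related transcripts or pseudogene copies cannot be separated in these values.

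**Figure D2:**
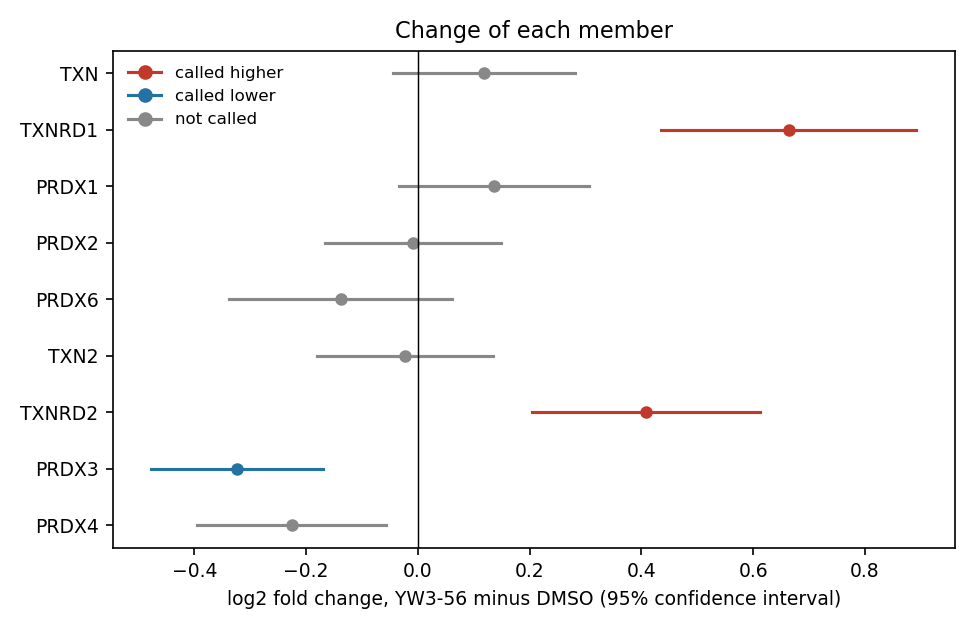
Log2 fold change of each member (points; horizontal axis, YW3-56 minus DMSO) with its 95% confidence interval from limma (lines). The intervals of TXNRD1 and TXNRD2 lie above 0 and those of PRDX3 and PRDX4 below it, although PRDX4 does not pass the adjusted threshold, and those of TXN, TXN2, PRDX1, PRDX2 and PRDX6 cross 0.

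In all, the groups did not overlap for 6 of 9 members, beside 36.9% of all genes tested. By compartment, the mitochondrial set held 1 rise (TXNRD2), 1 fall (PRDX3) and 1 gene that did not pass (TXN2). In the cytosolic set TXNRD1 rose and the other 4 members did not pass. PRDX1 was set against other peroxiredoxins within each array. Its change exceeded that of PRDX4 by 0.36 ± 0.07 SE (interval 0.16 to 0.56), that of PRDX6 by 0.27 ± 0.11 (-0.04 to 0.59) and that of PRDX2 by 0.14 ± 0.04 (0.02 to 0.27). The change of TXN exceeded that of TXN2 by 0.14 ± 0.06 (-0.04 to 0.32), and by 0.08 without YW3-56 replicate 3. In each of these 4 pairs the within-array differences of the groups did not overlap, and the exact two-sided permutation test gave p = 0.1, the smallest that 3 arrays against 3 allow (adjusted p = 0.125 over 5 pairs), so this test cannot reach 0.05. Between arrays of the same replicate number, each of these 4 differences was positive in 3 of 3 pairs. The paired intervals were 0.21 to 0.51 for PRDX1 over PRDX4, 0.01 to 0.54 over PRDX6 and 0.03 to 0.26 over PRDX2, and -0.07 to 0.36 for TXN over TXN2. These intervals are not adjusted for the number of pairs compared.

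**Figure D3:**
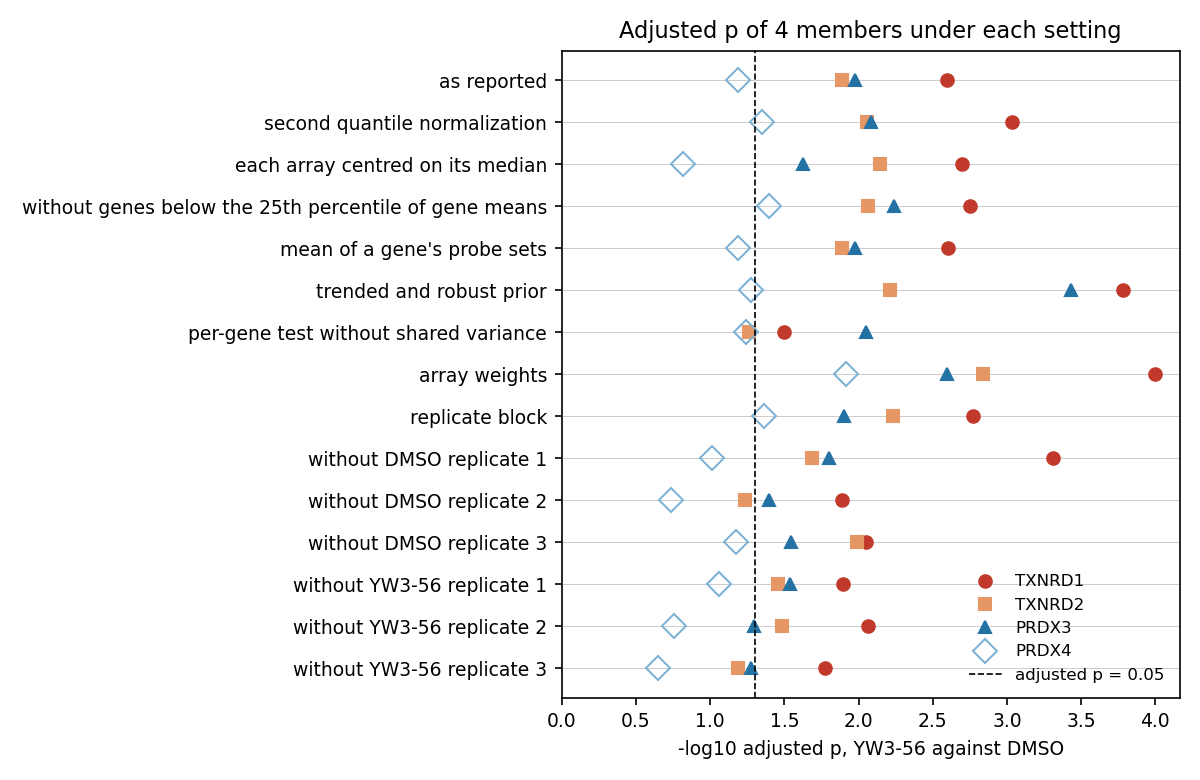
Minus log10 of the adjusted p (horizontal axis) of TXNRD1, TXNRD2, PRDX3 and PRDX4 under the reported setting and 14 others (rows); the dashed line marks an adjusted p of 0.05. TXNRD1 stays right of the line in every row, TXNRD2 falls left of it in 3 rows and PRDX3 in 2, and PRDX4 passes it in 4.

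The pattern of TXNRD1 over the 6 arrays was closest to that of 5 genes among the 9207 genes brighter than the median gene. These were MIR222, a microRNA precursor gene (Pearson r = 0.999, log2 fold change 1.61 ± 0.17 SE), B4GALNT1, a ganglioside-synthesising enzyme (0.998, 0.58 ± 0.09), CLASP1, a microtubule-binding protein (0.998, 0.43 ± 0.08), SLC67A2 (0.997, 0.51 ± 0.08) and KCTD18 (0.997, 0.71 ± 0.10). Each shares with TXNRD1 both the step between groups and the order of replicates 1, 3 and 2 within DMSO. With 6 arrays in 2 groups, high correlations arise for many genes, and the values describe likeness only.

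Genes that work beside the members were read from 7 lists drawn up by function, chosen with earlier results of these data known. Of 58 measured genes in these lists, 16 were called higher, 3 lower and 39 neither. Their median log2 fold change was 0.05, beside -0.05 over all genes, and their shares stand beside the 9.84% higher and 11.5% lower over all genes. Because the lists were not chosen blind to these data, no enrichment is read from these shares. TXNRD3, SCLY and MAFK were on the lists and were not analysed here.

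Among 9 thioredoxin regulators and relatives, 2 rose and 0 fell (median 0.09). SRXN1, sulfiredoxin, which repairs overoxidised peroxiredoxins, measured 10.68, 10.26 and 10.43 in DMSO and 11.85, 11.69 and 11.70 in YW3-56. Its groups were more than 1 log2 unit apart at their nearest points, and its rise of 1.29 ± 0.11 SE (limma adjusted p = 3.2e-04) was larger than that of any member. TXNL4B, a thioredoxin-like protein linked to splicing, rose by 0.86 ± 0.10 (adjusted p = 8.9e-04). TXNIP, which binds and inhibits thioredoxin, differed by only 0.02 ± 0.11 (adjusted p = 0.95). Among 9 clients of thioredoxin, 1 rose and 1 fell (median -0.18). These were subunits of ribonucleotide reductase: RRM2, the subunit of dividing cells, fell by 0.58 on the log2 scale, and RRM2B, the p53-inducible subunit, rose by 0.28 ± 0.07 (adjusted p = 0.024). The RRM2B call was lost without DMSO replicate 2 (0.099) or 3 (0.053) and without YW3-56 replicate 2 (0.087) or 3 (0.11), and the RRM2 call in the per-gene test (0.066). The clients RRM1 (-0.19) and APEX1 (-0.22) did not pass in the reported fit (limma adjusted p = 0.096 and 0.080). With a trended and robust prior both were called lower (0.016 and 0.0094), as was APEX1 with array weights (0.047).

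In the glutathione and glutaredoxin list, the parallel reducing system, 3 of 8 rose and 0 fell (median 0.20). With all probe sets of each gene averaged, GLRX5, the mitochondrial glutaredoxin, was called lower (-0.31, limma adjusted p = 0.020), against -0.15 (0.21) for its brightest probe set. GCLC and GCLM, the subunits of the enzyme that limits glutathione synthesis, rose by 1.32 ± 0.08 and 1.05 ± 0.07, and GLRX, the cytosolic glutaredoxin, by 0.66 ± 0.08 (limma adjusted p = 9.2e-05, 1.3e-04 and 9.7e-04). GSR, the glutathione reductase and counterpart of the thioredoxin reductases, differed by 0.28 ± 0.09 (adjusted p = 0.057). GSR passed with the replicate block (0.028), after a second quantile normalization (0.019) and under 4 further settings. Among 10 other enzymes of peroxide and superoxide, 2 rose and 0 fell (median -0.02). SOD1, the cytosolic superoxide dismutase, rose by 0.56 ± 0.08 (adjusted p = 0.0024), while the mitochondrial SOD2 differed by -0.07 ± 0.08 (adjusted p = 0.60). GPX8, a peroxidase of the endoplasmic reticulum, rose by 0.43 ± 0.10, a call lost without YW3-56 replicate 3 (0.073) and in the per-gene test (0.071). CAT, catalase, differed by 0.30 ± 0.13 (adjusted p = 0.16) and passed with the replicate block (0.026), with array weights (0.028) and without DMSO replicate 1 (0.022). In the other direction, GPX7 was called lower with array weights (-0.34, limma adjusted p = 0.016), against -0.20 (0.24) as reported.

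**Figure D4:**
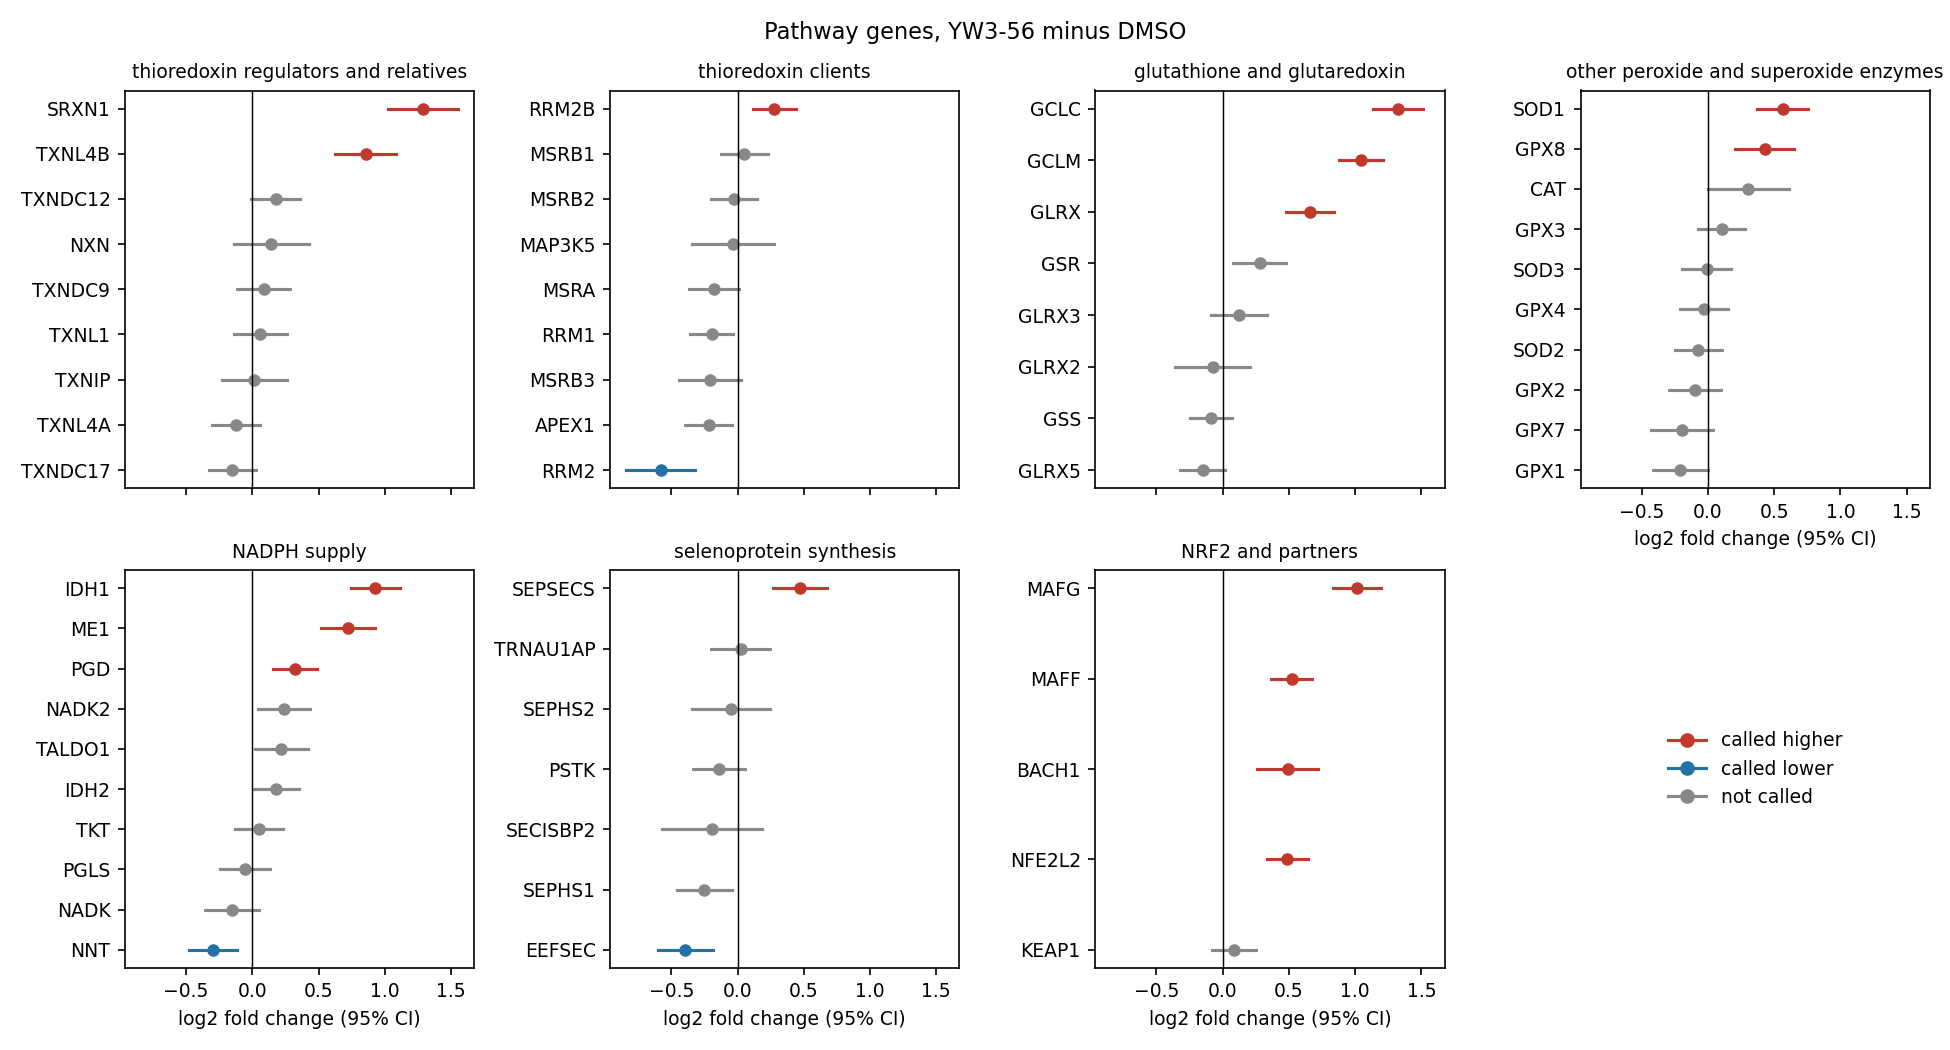
Log2 fold changes (points; horizontal axes, YW3-56 minus DMSO) with 95% confidence intervals (lines) for the 58 measured genes of the 7 lists, 1 panel a list, sorted by size. For the brightest probe set of each gene, the rises of SRXN1, GCLC, GCLM and MAFG exceed 1, and the called falls are RRM2, NNT and EEFSEC.

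NADPH feeds the reductases, and in the list of its suppliers 3 of 10 genes rose and 1 fell (median 0.20). IDH1, the cytosolic isocitrate dehydrogenase, measured 10.44, 10.62 and 10.59 in DMSO and 11.41, 11.48 and 11.55 in YW3-56. The groups stood apart, and its rise of 0.93 ± 0.08 (limma adjusted p = 2.9e-04) led the list. ME1, malic enzyme, rose by 0.72 ± 0.09 and PGD, of the pentose phosphate pathway, by 0.32 ± 0.07 (adjusted p = 0.0010 and 0.014). NNT, the mitochondrial transhydrogenase, which makes NADPH in the compartment of TXNRD2, fell by 0.30 on the log2 scale (adjusted p = 0.031). The PGD call was lost without DMSO replicate 2 (0.064) and without YW3-56 replicate 3 (0.065). The NNT call was lost under 7 of 14 settings, with adjusted p of 0.060 after a second quantile normalization, 0.051 after centring and 0.058 in the per-gene test. It was also lost without DMSO replicate 2 (0.11) or 3 (0.055) and without YW3-56 replicate 1 (0.10) or 3 (0.11). TALDO1 (0.22) and NADK2 (0.24) passed with the replicate block (adjusted p = 0.047 and 0.048) but not in the reported fit (0.13 and 0.085).

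Selenocysteine is needed for both reductases, and of 7 measured genes of selenoprotein synthesis 1 rose and 1 fell (median -0.14). SEPSECS, which makes selenocysteine on its tRNA, rose by 0.47 ± 0.09 (limma adjusted p = 0.0065). EEFSEC, the elongation factor that delivers that tRNA, fell by 0.39 on the log2 scale (adjusted p = 0.017), a call lost without DMSO replicate 2 (0.068), without YW3-56 replicates 1 (0.061) or 3 (0.078) and in the per-gene test (0.065). SEPHS1 (-0.25) passed with the replicate block (0.035) but not in the reported fit (0.088). Of 5 measured genes for NRF2 and its partners, 4 rose and 0 fell (median 0.49). MAFG, a small MAF partner of NRF2, rose by 1.01 ± 0.08, MAFF by 0.52 ± 0.07, BACH1, a repressor at NRF2 sites, by 0.49 ± 0.10 and NFE2L2, the gene of NRF2, by 0.49 ± 0.07 (adjusted p = 1.8e-04, 0.0014, 0.0098 and 0.0017). KEAP1, which targets NRF2 for degradation, differed by 0.09 ± 0.07 (adjusted p = 0.49), and the BACH1 call was lost in the per-gene test (0.060).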

How the data were processed

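Expression was measured on Affymetrix arrays, 3 for DMSO and 3 for YW3-56. The authors deposited log2 values for 33297 probe sets, made with RMA and the affy package per the submitters' processing notes; their versions and the genome build were not given in the sources used here. The method equalises intensity distributions between arrays, so a shift of all transcripts would not be seen. The medians of the deposited arrays still ranged from 7.55 to 7.74. The median log2 fold change over all genes was -0.05 as reported and -0.02 after a second quantile normalization. Arrays have no read depth, and their number limits the precision.

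Probe sets with 1 symbol in the platform annotation (19460) were kept, and the brightest by mean of 6 arrays stood for each of 18417 genes. limma 3.58.1 in R 4.3.3 (lmFit, eBayes, group as the only term, no filter) was run over all genes, two-sided, with Benjamini-Hochberg adjustment, and genes were called at an adjusted p under 0.05. The fit had 4 residual and 4.17 prior degrees of freedom, and the code was tested on simulated data. Differences between members were taken within arrays, with intervals from the pooled SD and, as an addition after seeing the data, between arrays of the same replicate number.

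The members and lists were chosen with earlier results of these data known. Named genes were all members, the called genes of each list with others of large change, and the 5 genes most like the leading member; MIR222 and the others of that group follow from the rule. Of the uncalled list genes, TXNIP, RRM1, APEX1, SOD2, GSR, GLRX5, CAT, GPX7, KEAP1, TALDO1, NADK2 and SEPHS1 were named after their values were seen. Deviations of arrays from their group means correlated over genes at 0.54, 0.37 and 0.10 for same-numbered arrays. For arrays of different numbers they ran from -0.55 to 0.42, the highest being DMSO replicate 3 with YW3-56 replicate 2. The values therefore do not show that equal numbers are pairs, and replicate number was fitted as a block only as an alternative. Other settings were a second quantile normalization, centring, a filter on dim genes, mean of probe sets, a trended and robust prior, no shared variance, array weights (gene-by-gene method) and leaving out each array.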

Additional observations from a re-analysis of the deposited data

How the results depend on the processing

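Of 126 repeat tests of the 9 members under 14 alternatives, 116 kept their side of the threshold, 5 lost a call and 5 gained one, and no called member changed sign. Of 811 repeat tests of the pathway genes, 765 kept it, 21 lost a call and 25 gained one. The count of lower members, 1 as reported, was 2 after a second quantile normalization, 2 without genes below the 25th percentile of gene means, 2 with replicate number as a block and 3 with array weights. The added member was PRDX4 in each case, joined by PRDX6 with array weights. The block changed no other call of a member. In the test on each gene's own variance, 1 member and not 2 was called higher, and the number of lower pathway genes was 0, against 3 as reported and 6 with a trended and robust prior. Array weights also raised the members called from 3 to 5, the lower pathway genes to 5 and the genes called overall from 3933 to 6079, with 3432 lower. Here DMSO replicate 2 counted most (weight 2.94) and DMSO replicate 1 least (0.33), and a gene-by-gene method stood in for the default one, which did not converge. Leaving out each array in turn gave 1 to 3 called members, 1 to 2 higher and 0 to 1 lower. It gave 1 to 3 lower pathway genes, and over all genes 2364 to 4689 calls, 1158 to 2084 higher and 1206 to 2605 lower. The lowest counts over all genes came without YW3-56 replicate 3, when TXNRD1 was the called member. Differences between members compared in pairs kept their sign and moved by less than 1 SD between replicates under each setting run. Taking them between arrays of the same replicate number, an alternative chosen after seeing the data, leaves their means as they are and moved the interval of PRDX1 over PRDX6 off 0. The planned pair of PRDX3 and PRDX5 was not run. The cause of these shifts was not tested. With 3 arrays a group, member intervals were 0.15 to 0.23 log2 units to each side, and smaller changes could be missed.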
